A study of Mus musculus with 6 samples.

Results

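The 41 genes described here encode the proteins that copy chromosomal DNA: they license origins, unwind and prime the template, synthesise and join the strands, supply nucleotides and place new histones. Members were chosen by gene name, and all 41 were found among the 53135 features of the deposited tables (named genes, and unnamed loci without a gene name). The cultures were Sertoli cells, the somatic cells that nurse germ cells in the testis tubule. Lines positive for expression of Y-GFP, a GFP reporter on the Y chromosome, gave 3 libraries (replicates 2, 4 and 7), and GFP-negative lines gave 3 (replicates 9, 11 and M). All cells were labelled Sertoli, and the labels give no strain, age, treatment, time in culture or clonal origin. Nothing in them says that replicates came from separate animals or cultures, and the p-values therefore reflect only how far these libraries spread, which may be technical.

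Before S phase the origin recognition complex, with Cdc6 and Cdt1, loads the ring-shaped MCM2-7 helicase onto DNA. Cdc45 and GINS then turn that ring into an active helicase, polymerase alpha-primase lays primers, and polymerases delta and epsilon extend them on the sliding clamp PCNA. Many of these genes are transcribed under E2F factors as cells pass into S phase. Sertoli cells divide in fetal and early postnatal life and leave the cycle around puberty, so in the adult testis these genes are characteristic of dividing germ cells and not of Sertoli cells.

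Values are scaled FPKM, a fragment density per transcript length and depth, summed over the named transcripts of a gene and scaled between libraries. FPKM is per length, so levels of different genes are set side by side here, within limits. Differences still followed transcript length, and unnamed isoforms at some loci lie outside the sums. Differences are log2(scaled FPKM + 0.5), GFP-positive minus GFP-negative, tested with limma over 15095 features at an adjusted p (Benjamini-Hochberg) under 0.05. Depth, as the median over transcripts of coverage divided by FPKM, was 11.2 to 11.8 Gb per library in the GFP-positive group and 8.25 to 10.02 Gb in the GFP-negative group. Deposited FPKM summed to 668557, 747404 and 723729 in GFP-positive 2, 4 and 7 and to 470070, 292449 and 309971 in GFP-negative 9, 11 and M. Of 16 Sertoli markers, 14 were above 0 in all libraries, while Gata1 and Rhox5 were listed at 0 in some. Their summed level was 3579, 2551 and 1787 FPKM in GFP-positive 2, 4 and 7 and 3478, 802 and 3255 FPKM in GFP-negative 9, 11 and M, of which Clu alone gave 64.3% to 77.8% in the GFP-positive and 64.2% to 76.0% in the GFP-negative libraries. Of 15 tested, Dmrt1 rose, and Sox9 and Gata4 fell, where 14.4% of all features were called higher and 11.5% lower.

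Relative to the median of all features, DNA replication genes were mostly higher in the GFP-positive libraries. Of the 41, 13 rose and none fell, or 31.7% against a background of 14.4% of all features called higher, 11.5% called lower and 25.9% called in either direction. The log2 difference was above 0 in 33 members (80.5%), against 50.8% of all features. The 13 were the helicase subunit gene Mcm7, Prim1, Rpa3, Tk1, Rpa2, Gins1, Orc6, Pcna, Prim2, Orc1, Gins3, Rfc2 and Pole2, with log2 differences between 2.63 and 0.93. Over the 41 the median log2 difference was 0.84, against 0.020 over all tested features. All 41 passed the filter on low values. In 19 members (46.3%) every GFP-positive library lay above every GFP-negative library, against 23.5% of all features, and in 1, Rfc1, every GFP-positive library lay below, against 22.2%. When libraries were instead given an equal FPKM sum, the median of all features moved to -0.87, and on that scale 3.63% of all features were called higher and 41.8% lower. Of the members 2 rose (4.88%, Mcm7 and Rpa3) and 4 fell (9.76%, Lig1, Mcm4, Rfc1 and Rpa1) there, and their median was -0.091, which is 0.78 above that of all features. In bulk samples a different share of cells in S phase and a different amount of RNA per cell cannot be told apart.

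**Figure D1:**
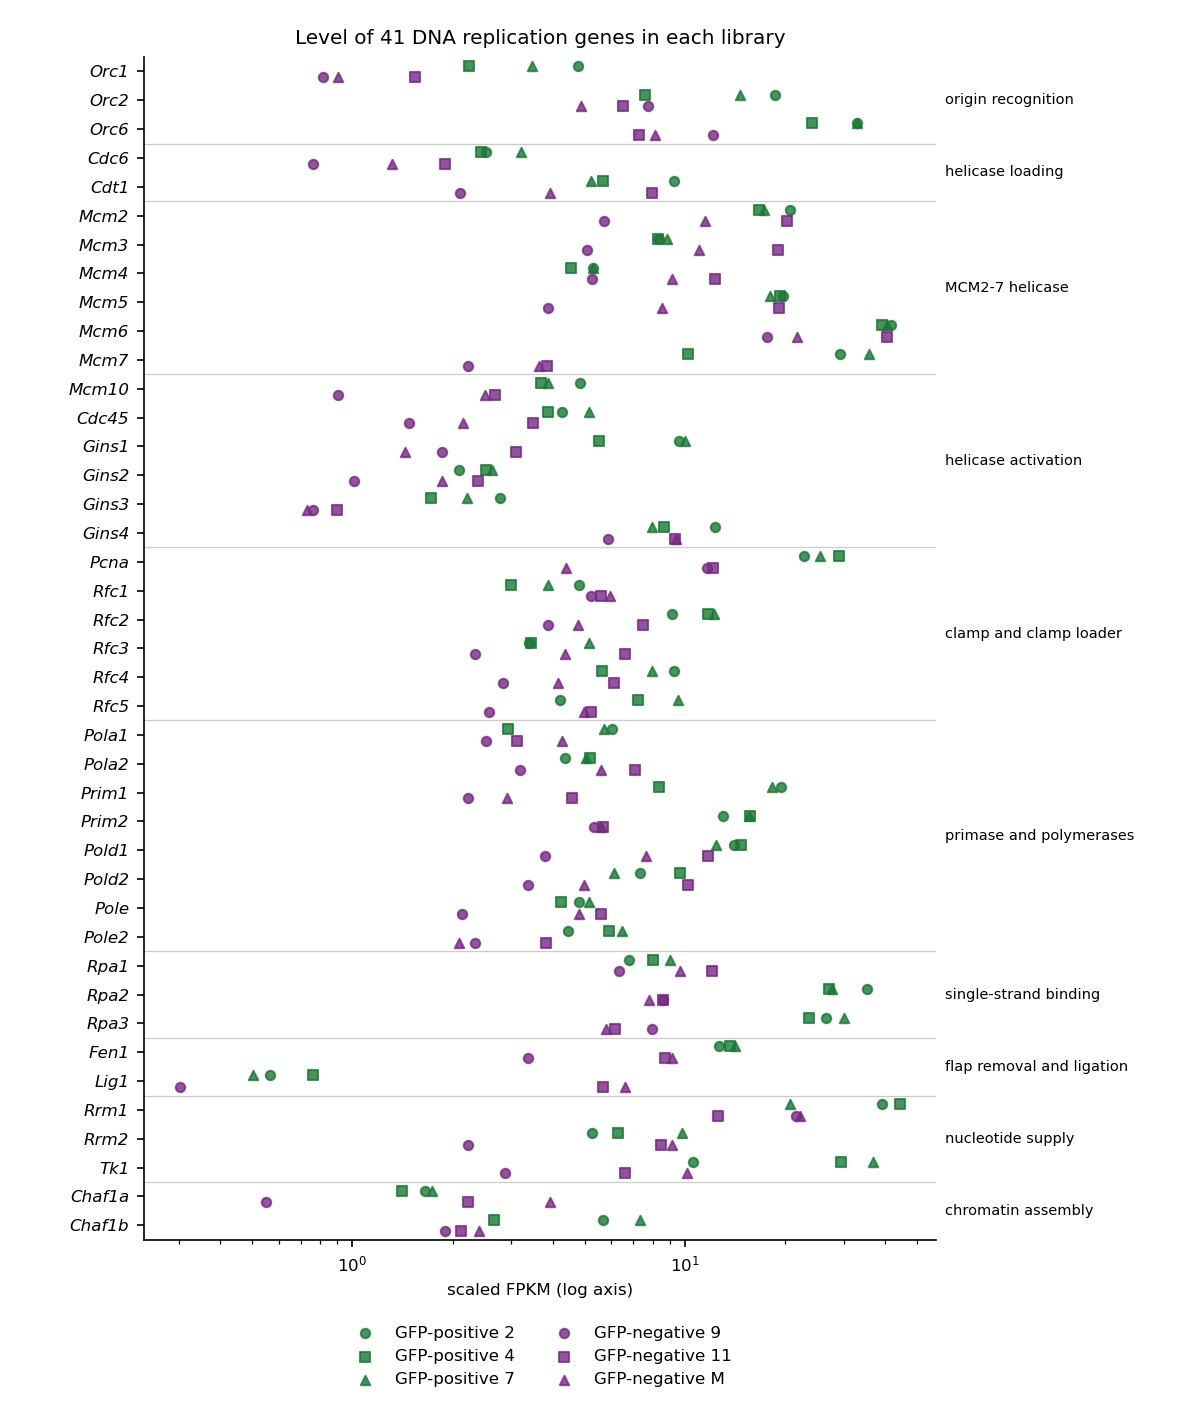
Scaled FPKM (log axis) of the 41 genes in each library, grouped by role, with GFP-positive libraries in green and GFP-negative libraries in purple (1 symbol per library). Rpa2, Rpa3, Orc6 and Prim2 show groups that are well apart, while Mcm2, Mcm3 and Mcm5 span a wide range in the GFP-negative libraries with replicate 9 lowest.

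The single-strand binding complex RPA, which coats the unwound template, held the genes with the smallest adjusted p. Rpa3 had 26.6, 23.6 and 30.1 FPKM in GFP-positive 2, 4 and 7, against 7.96, 6.15 and 5.80 FPKM in GFP-negative 9, 11 and M (log2 difference 1.94, SE 0.25, adjusted p = 0.00622). Rpa2 had 35.1, 27.0 and 27.6 FPKM in the GFP-positive libraries, against 8.56, 8.61 and 7.81 FPKM in the GFP-negative ones (log2 difference 1.78, SE 0.24, adjusted p = 0.00636). Both groups were tight and far apart. Rpa1, the large subunit with most of the DNA-binding surface, averaged 7.92 ± 1.10 FPKM in GFP-positive and 9.34 ± 2.87 FPKM in GFP-negative libraries (SD, n = 3 each), a log2 difference of -0.19 (SE 0.29, adjusted p = 0.650). Rpa1 made up 9.90%, 13.7% and 13.5% of the summed FPKM of the 3 subunits in the GFP-positive libraries, against 27.6%, 44.9% and 41.5% in the GFP-negative libraries. Such shares do not depend on how libraries are scaled, and no test was run on them since they were chosen after the values were seen. They can still follow transcript length, as the main transcripts of Rpa1, Rpa2 and Rpa3 measure 5077, 1813 and 670 nt. With a trend in the length of the longest transcript removed over all features, the log2 differences were 0.20 for Rpa1, 1.51 for Rpa2 and 1.295 for Rpa3.

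Both DNA primase genes rose, and their polymerase partners did not pass. Prim1, which encodes the catalytic primase subunit (chromosome 10, 127851037 to 127865906, mm39, plus strand), had 19.5, 8.36 and 18.2 FPKM in GFP-positive 2, 4 and 7, against 2.23, 4.58 and 2.91 FPKM in GFP-negative 9, 11 and M (log2 difference 2.04, SE 0.38, adjusted p = 0.0114). Prim2, the regulatory primase subunit gene (chromosome 1, 33492891 to 33708876, minus strand), had 13.0, 15.6 and 15.6 FPKM in the GFP-positive libraries, against 5.34, 5.67 and 5.60 FPKM in the GFP-negative ones (log2 difference 1.33, SE 0.23, adjusted p = 0.00954). Prim2 had the smallest spread of all members among the GFP-negative libraries, with an SD of 3.19% of the mean. Pola1, the X-linked catalytic subunit gene of polymerase alpha, averaged 4.89 ± 1.70 FPKM in GFP-positive and 3.30 ± 0.881 FPKM in GFP-negative libraries (adjusted p = 0.305), and Pola2, its accessory subunit gene, 4.85 ± 0.442 and 5.27 ± 1.96 FPKM (adjusted p = 0.915). The level of Prim1 was 2.84 to 3.24 times that of Pola1 in the GFP-positive libraries and 0.683 to 1.46 times in the GFP-negative ones, and that of Prim2 was 2.99 to 3.10 times that of Pola2 in GFP-positive and 0.804 to 1.68 times in GFP-negative libraries. These ratios set a gene that rose over one that did not pass, and were not tested. Ratios of Pole2 to Pole (0.925 to 1.39 in GFP-positive, 0.437 to 1.09 in GFP-negative libraries) overlapped between groups. So did Rrm1 to Rrm2 (2.12 to 7.42, 1.49 to 9.64) and Rpa3 to Rpa2 (0.757 to 1.09, 0.714 to 0.930).

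Of the replicative polymerases, the epsilon accessory subunit gene Pole2 rose, at 4.45, 5.92 and 6.48 FPKM in GFP-positive 2, 4 and 7, against 2.34, 3.81 and 2.09 FPKM in GFP-negative 9, 11 and M (log2 difference 0.93, SE 0.30, adjusted p = 0.0489). This call lay just inside the threshold and was lost without any library other than GFP-negative 11. Its catalytic partner Pole averaged 4.73 ± 0.449 FPKM in GFP-positive and 4.18 ± 1.81 FPKM in GFP-negative libraries (log2 difference 0.25, adjusted p = 0.614). The catalytic subunit gene of polymerase delta, Pold1, had 14.0, 14.8 and 12.4 FPKM in GFP-positive libraries, all above the 3.80, 11.7 and 7.64 FPKM of the GFP-negative ones, but did not pass (log2 difference 0.91, SE 0.37, adjusted p = 0.0976). Pold2, its accessory subunit gene, overlapped between groups, with a log2 difference of 0.40 (adjusted p = 0.453).

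Of the 3 origin recognition genes 2 rose. Orc6, the small subunit gene (chromosome 8, 86026261 to 86034907, plus strand), had 32.9, 24.0 and 32.9 FPKM in GFP-positive 2, 4 and 7, against 12.1, 7.29 and 8.11 FPKM in GFP-negative 9, 11 and M (log2 difference 1.67, SE 0.28, adjusted p = 0.00890). Orc1, the ATPase subunit gene whose product is known to be degraded outside G1 in human cells, measured 4.76, 2.24 and 3.47 FPKM in GFP-positive and 0.813, 1.55 and 0.904 FPKM in GFP-negative libraries (log2 difference 1.31, SE 0.34, adjusted p = 0.0249). Groups did not overlap in either gene. Orc2 had a log2 difference of 0.97 (SE 0.36, adjusted p = 0.0739), with GFP-positive 4 at 7.57 FPKM below GFP-negative 9 at 7.74 FPKM. Orc6 and Vps35 (mean 43.3 FPKM) overlap by 171 nt on opposite strands. The libraries keep the strand, but no source used here says whether the assembly used it, so reads in that overlap are uncertain. The loading factor genes did not pass: Cdc6 had a log2 difference of 0.86 (SE 0.31, adjusted p = 0.0711), with every GFP-positive library above, and Cdt1 0.61 (SE 0.44, adjusted p = 0.311).

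The helicase subunit genes of MCM2-7 gave 1 call, Mcm7, and differences of both signs. Mcm6 had the highest mean level of all members, at 41.6, 39.0 and 40.6 FPKM in GFP-positive 2, 4 and 7, against 17.6, 40.5 and 21.7 FPKM in GFP-negative 9, 11 and M (log2 difference 0.68, SE 0.33, adjusted p = 0.145). Mcm2 had 20.7, 16.7 and 17.3 FPKM in the GFP-positive libraries and at 5.71, 20.3 and 11.5 FPKM in the GFP-negative ones (adjusted p = 0.232), and Mcm5 at 19.7, 19.3 and 18.1 FPKM in GFP-positive and 3.86, 19.1 and 8.52 FPKM in GFP-negative libraries (adjusted p = 0.118). These genes were even among the GFP-positive libraries and differed several-fold among the GFP-negative ones, where replicate 11 reached the GFP-positive level and replicate 9 was lowest. Mcm3 (log2 difference -0.26, adjusted p = 0.656) and Mcm4 (-0.69, SE 0.32, adjusted p = 0.140) had negative differences. The level of Mcm6 was 7.67 to 8.60 times that of Mcm4 in the GFP-positive libraries and 2.38 to 3.34 times in the GFP-negative ones. No test was run on this ratio.

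Mcm7 had the largest difference of the 41, but its value depended on which isoforms were counted. Its named transcripts summed to 29.2, 10.2 and 35.7 FPKM in GFP-positive 2, 4 and 7, against 2.23, 3.84 and 3.64 FPKM in GFP-negative 9, 11 and M (log2 difference 2.63, SE 0.46, adjusted p = 0.00954). At the same locus (chromosome 5, 138162845 to 138170684, minus strand) 2 unnamed isoforms together held 11.5, 22.1 and 4.80 FPKM in the GFP-positive and 8.74, 21.6 and 12.2 FPKM in the GFP-negative libraries. GFP-positive 4 was the lowest of the GFP-positive libraries in the named transcripts and the highest of the 6 libraries in the unnamed ones. With them added, the gene had 40.8, 32.6 and 40.7 FPKM in the GFP-positive and 10.9, 25.6 and 15.8 FPKM in the GFP-negative libraries, and the log2 difference was 1.18 (adjusted p = 0.0276).

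The genes that activate the helicase were split. Gins1 had 9.57, 5.51 and 10.03 FPKM in GFP-positive 2, 4 and 7, against 1.86, 3.10 and 1.44 FPKM in GFP-negative 9, 11 and M (log2 difference 1.76, SE 0.34, adjusted p = 0.0121). Gins3 measured 2.78, 1.73 and 2.21 FPKM in GFP-positive and 0.760, 0.899 and 0.731 FPKM in GFP-negative libraries (log2 difference 1.06, SE 0.27, adjusted p = 0.0253). The other subunits of this 4-protein ring, Gins2 (log2 difference 0.42, adjusted p = 0.332) and Gins4 (0.23, adjusted p = 0.577), did not pass. The share of Gins1 in the summed FPKM of GINS was 29.9% to 44.0% in GFP-positive and 10.7% to 19.7% in GFP-negative libraries. Cdc45 (log2 difference 0.83, SE 0.32, adjusted p = 0.0827) and Mcm10, a scaffold for helicase activation (0.95, SE 0.36, adjusted p = 0.0784), also missed the threshold, although in both genes every GFP-positive library lay above every GFP-negative one.

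**Figure D2:**
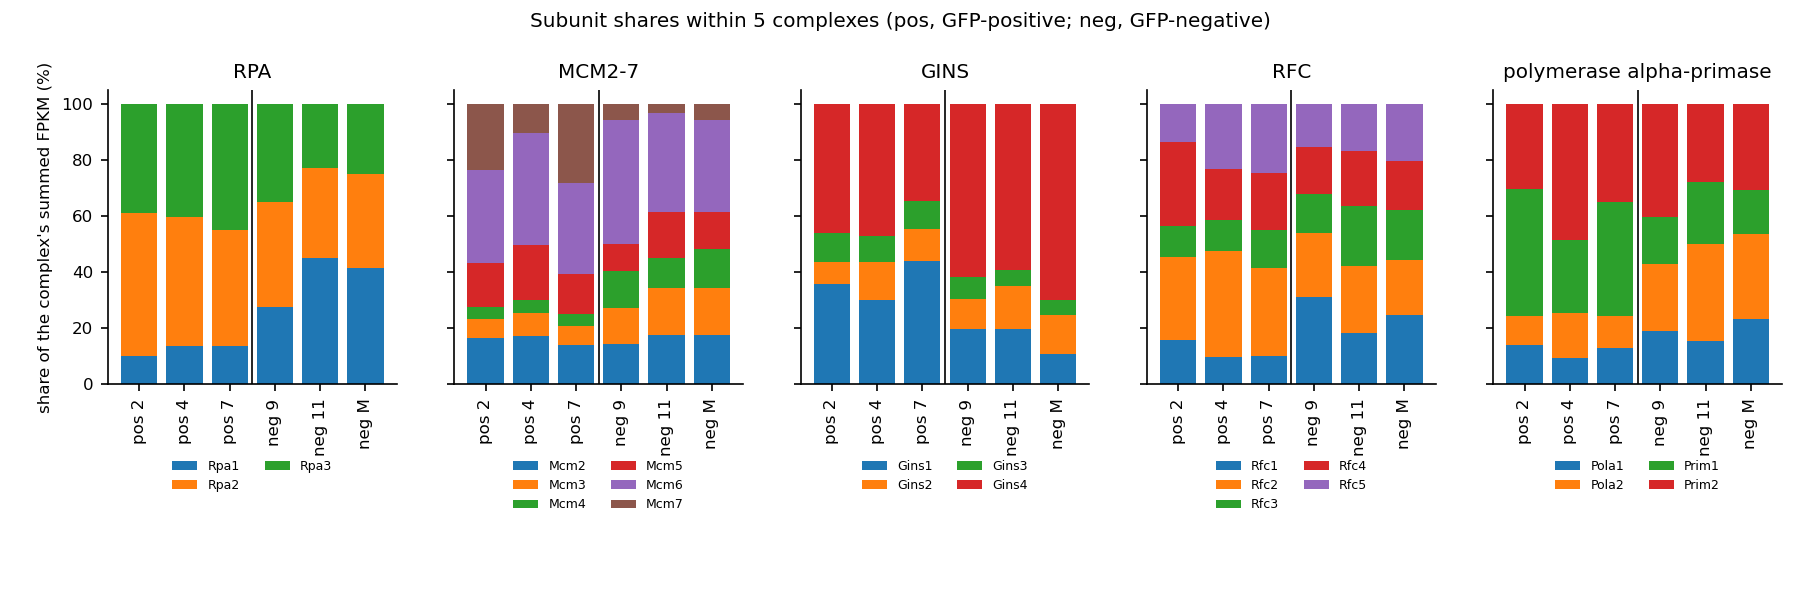
Share (%) of each subunit in the summed FPKM of its complex, by library, for RPA, MCM2-7, GINS, the clamp loader RFC and polymerase alpha-primase (GFP-positive libraries left of the line, GFP-negative right). Rpa1 takes 9.90% to 13.7% of RPA in the GFP-positive and 27.6% to 44.9% in the GFP-negative libraries. The shares were not tested and were not corrected for a trend with transcript length.

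The sliding clamp gene rose, and so did 1 of the 5 genes of its loader. Pcna (chromosome 2, 132091082 to 132095234, minus strand) had 22.9, 29.0 and 25.5 FPKM in GFP-positive 2, 4 and 7, against 11.7, 12.1 and 4.39 FPKM in GFP-negative 9, 11 and M (log2 difference 1.52, SE 0.38, adjusted p = 0.0232). Every GFP-positive library was above the GFP-negative ones, where M was lowest. The call was lost without GFP-positive 4 or 7 (adjusted p = 0.0711 and 0.0805), without GFP-negative M (log2 difference 1.04, adjusted p = 0.0774) and once a trend with transcript length was taken out (1.19, adjusted p = 0.0632). The pseudogene Pcna-ps2 was listed at up to 0.944 FPKM, and how reads were split between it and Pcna is not known. Among the loader subunits Rfc2 rose, at 11.04 ± 1.65 FPKM in GFP-positive and 5.38 ± 1.89 FPKM in GFP-negative libraries (log2 difference 1.01, SE 0.30, adjusted p = 0.0383). The call of Rfc2 was lost without any library other than GFP-negative 11. Rfc4 (0.77, adjusted p = 0.110), Rfc5 (0.64, adjusted p = 0.216) and Rfc3 (-0.058, adjusted p = 0.918) did not pass. Rfc1, the large subunit gene, was the member with every GFP-positive library below, at 4.80, 2.99 and 3.87 FPKM in GFP-positive 2, 4 and 7 and 5.20, 5.60 and 5.96 FPKM in GFP-negative 9, 11 and M (log2 difference -0.49, SE 0.26, adjusted p = 0.186).

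Flap removal and ligation genes had differences of opposite sign and neither passed. The flap endonuclease gene Fen1 had 12.7, 13.6 and 14.2 FPKM in GFP-positive 2, 4 and 7, against 3.38, 8.73 and 9.14 FPKM in GFP-negative 9, 11 and M (log2 difference 0.99, SE 0.37, adjusted p = 0.0741). The DNA ligase gene Lig1 had 0.563, 0.762 and 0.503 FPKM in the GFP-positive libraries and at 0.303, 5.66 and 6.60 FPKM in the GFP-negative ones (log2 difference -1.57, SE 0.73, adjusted p = 0.138). GFP-negative 9 was as low in Lig1 as the GFP-positive libraries, and without it the log2 difference was -2.58 (adjusted p = 0.00192). An unnamed isoform at the Lig1 locus held 1.21 to 1.34 FPKM in the GFP-positive and 1.35 to 4.95 FPKM in the GFP-negative libraries, and with it added the log2 difference was -1.37 (adjusted p = 0.0958).

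Nucleotide supply gave 1 call. Tk1, the thymidine kinase gene of the salvage pathway, had 10.6, 29.4 and 36.7 FPKM in GFP-positive 2, 4 and 7, against 2.87, 6.61 and 10.2 FPKM in GFP-negative 9, 11 and M (log2 difference 1.86, SE 0.54, adjusted p = 0.0363). The groups came close, at 10.6 FPKM in GFP-positive 2 and 10.2 FPKM in GFP-negative M. Its call was lost without any single library other than GFP-positive 2. The ribonucleotide reductase genes did not pass: Rrm1, the large subunit, measured 39.0, 44.3 and 20.7 FPKM in GFP-positive and 21.5, 12.6 and 22.1 FPKM in GFP-negative libraries (log2 difference 0.84, adjusted p = 0.109), and Rrm2, the small subunit that limits activity in S phase, measured 5.26, 6.31 and 9.80 FPKM in GFP-positive and 2.23, 8.47 and 9.12 FPKM in GFP-negative libraries (0.26, adjusted p = 0.710).

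Of the chromatin assembly factor genes, whose products place new histones behind the fork, neither passed in the sum over named transcripts. Chaf1b had 5.68, 2.67 and 7.31 FPKM in GFP-positive 2, 4 and 7, against 1.90, 2.13 and 2.41 FPKM in GFP-negative 9, 11 and M (log2 difference 1.02, SE 0.36, adjusted p = 0.0646). It passed once the unnamed isoform at its locus was added (1.19, adjusted p = 0.0208). Chaf1a had a log2 difference of -0.16 (SE 0.48, adjusted p = 0.826), at 1.60 ± 0.170 FPKM in GFP-positive and 2.23 ± 1.69 FPKM in GFP-negative libraries, and of -0.55 (adjusted p = 0.3001) with its unnamed isoform added.

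**Figure D3:**
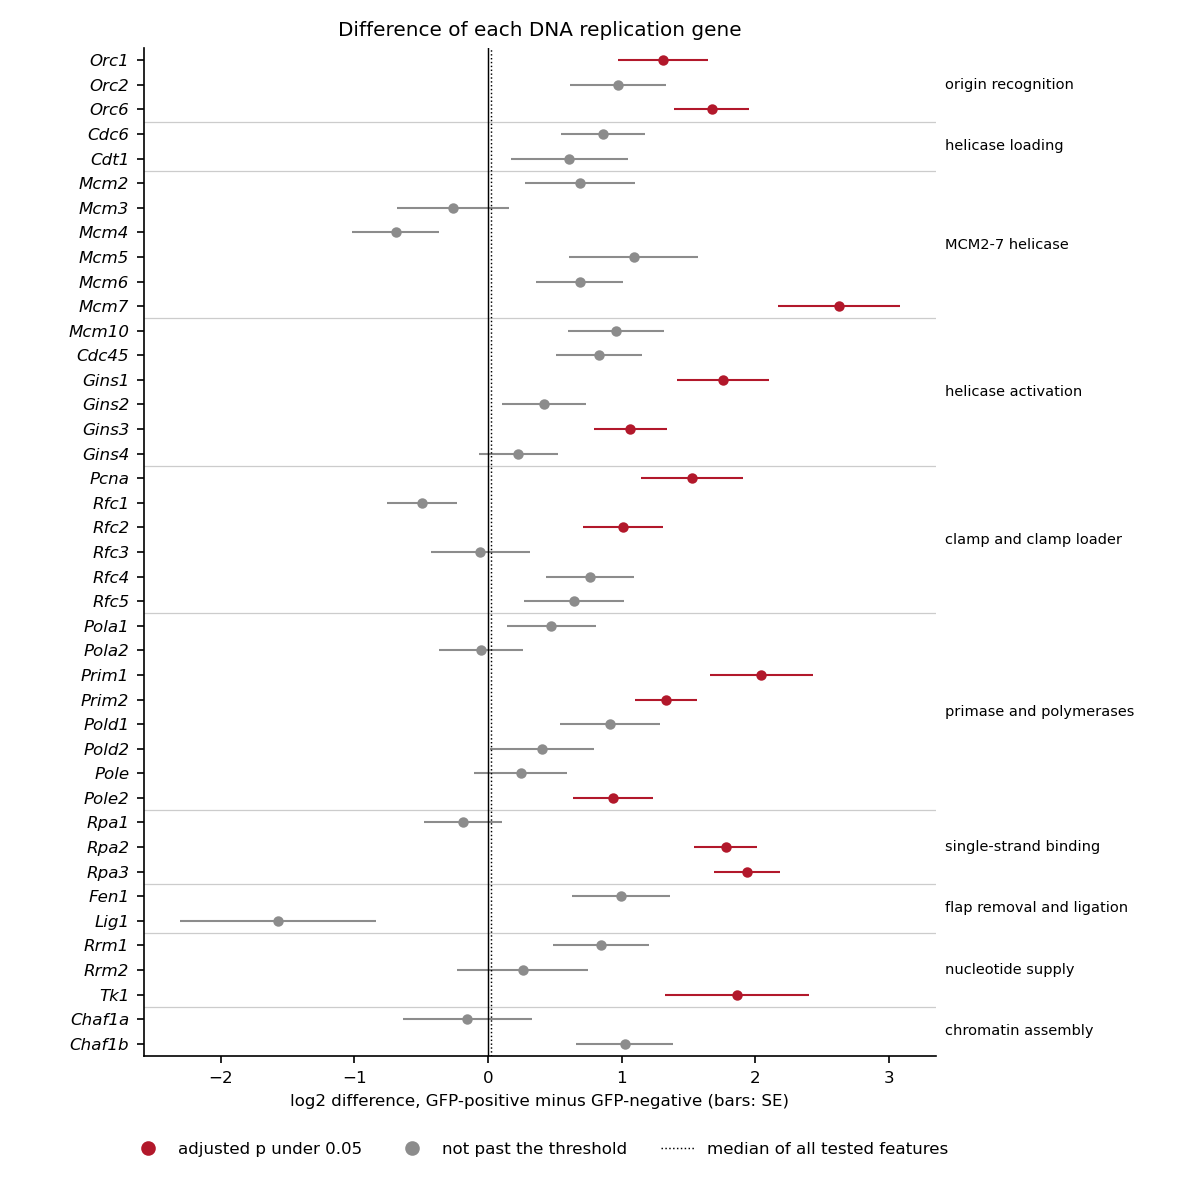
Log2 difference, GFP-positive minus GFP-negative, of each of the 41 genes by role (bars are the SE from limma). The 13 genes past the threshold (red) lie between 0.93 and 2.63, while Lig1, Mcm4, Rfc1, Mcm3, Rpa1, Chaf1a, Rfc3 and Pola2 lie below 0; with equal FPKM sums 17 of the 41 lie above 0.

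Promoter sequence was described for the members found in the RefSeq table of mouse promoters (GRCm38.p6), which was matched by symbol and held 34 of the 41. The 250 bases before each start were searched on both strands for the E2F letters TTTCCCGC, TTTCGCGC, TTTGCCGC and TTTGGCGC and for CCAAT, the letters bound by NF-Y. E2F letters occurred for 8 of the 34 members (23.5%), against 4.22% of 9785 tested genes and 2.16% of 27025 genes in the table. CCAAT occurred for 23 of the 34 (67.6%), against 41.2% of the tested genes and 37.5% of all genes. Among the 10 members that rose and had a promoter, 3 held E2F letters and 8 held CCAAT. Among the 24 that did not pass, 5 and 15 did. Another motif, the CHR letters TTTGAA, occurred for 14.7% of members, 12.6% of tested genes and 18.3% of all genes. A match is a description of letters and not a binding site.

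The 150 bases before the start are shown 5′ to 3′ for Orc1 and Gins3, which rose and hold E2F letters, and for Mcm6, the member with the highest mean level, with the E2F letters of either strand in capitals (the GCGCGAAA and GCGGGAAA runs are matches on the other strand). They lie at chr4:108579304-108579453 (plus strand, Orc1), chr8:95633409-95633558 (plus strand, Gins3) and chr1:128359706-128359855 (minus strand, Mcm6). In Mcm6 a pair of matches on opposite strands overlap.
Orc1: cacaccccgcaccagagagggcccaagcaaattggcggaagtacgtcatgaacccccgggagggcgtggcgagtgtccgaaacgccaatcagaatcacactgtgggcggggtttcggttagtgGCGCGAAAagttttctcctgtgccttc
Gins3: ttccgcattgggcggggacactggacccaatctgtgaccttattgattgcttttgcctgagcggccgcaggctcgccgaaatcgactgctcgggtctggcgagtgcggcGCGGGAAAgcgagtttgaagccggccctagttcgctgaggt
Mcm6: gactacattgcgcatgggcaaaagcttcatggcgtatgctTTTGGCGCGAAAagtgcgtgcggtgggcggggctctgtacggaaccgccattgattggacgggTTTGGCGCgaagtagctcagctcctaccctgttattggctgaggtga
Rpa3 and Rpa2, the genes with the smallest adjusted p, hold no E2F letters in this window but a pair of CCAAT matches each, all on the other strand and so in capitals as ATTGG. They lie at chr6:8259142-8259291 (minus strand, Rpa3) and chr4:132768210-132768359 (plus strand, Rpa2).
Rpa3: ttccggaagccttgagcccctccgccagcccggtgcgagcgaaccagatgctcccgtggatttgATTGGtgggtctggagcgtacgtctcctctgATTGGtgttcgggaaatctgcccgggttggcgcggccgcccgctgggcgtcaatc
Rpa2: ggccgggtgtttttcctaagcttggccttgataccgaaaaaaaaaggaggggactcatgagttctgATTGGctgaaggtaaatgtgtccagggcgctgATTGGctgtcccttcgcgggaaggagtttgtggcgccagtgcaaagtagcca

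GFP-negative replicate 9 was the lowest of the 6 libraries in 30 of the 41 genes, and lowest among the GFP-negative libraries in 32. The median member level was 8.35, 7.22 and 8.86 FPKM in GFP-positive 2, 4 and 7, against 2.87, 6.53 and 4.95 FPKM in GFP-negative 9, 11 and M. GFP-negative 11 was the highest of its group in 28 members. The median SD of a member was 17.1% of its mean in the GFP-positive and 39.5% in the GFP-negative libraries. Without GFP-negative 9 the median log2 difference of the members was 0.54 in place of 0.84, and 10 rose (24.4%, against 18.9% of all features). In that fit Mcm4 (-1.01, adjusted p = 0.0198) and Lig1 fell (4.88%, against 18.2% of all features called lower). Only 3 members, Mcm7, Rpa2 and Rpa3, rose without GFP-positive 7 or without GFP-negative M (7.32% in each fit), where 2.67% and 2.10% of all features were called higher. The count was 9 without GFP-positive 2 (22.0%, against 10.4% of all features), 11 without GFP-positive 4 (26.8%, against 8.42%) and 15 without GFP-negative 11 (36.6%, against 9.35%). Mcm7, Rpa2 and Rpa3 passed in all 6 of these fits. The call of Orc1 was also lost without GFP-positive 2, and that of Gins3 without GFP-positive 2 or GFP-negative 11.

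Among the members, differences were larger for short transcripts. Of 14 members whose main transcript was under 2000 nt, 9 rose, with a median log2 difference of 1.43, and of 27 with a longer main transcript 4 rose, with a median of 0.68. The same split was not made over all features, of which 14.4% were called higher, so the contrast may not be particular to these genes. Across the 41 genes, which share the same libraries, log2 length and log2 difference had a Pearson r of -0.41 and a Spearman rho of -0.42. A trend in length was also removed over all features, but it used the longest transcript of each feature and not the main one. The longest transcript has 3300 nt in Prim1 and 3314 nt in Prim2, against 1583 and 1975 nt for the main one. In that fit 13 members again rose, 10 of them among the 13 above, with Mcm10, Cdc6 and Rrm1 in place of Pcna, Pole2 and Tk1. A trend in main transcript length was not removed. The share of all features called higher was then 8.29%.

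**Figure D4:**
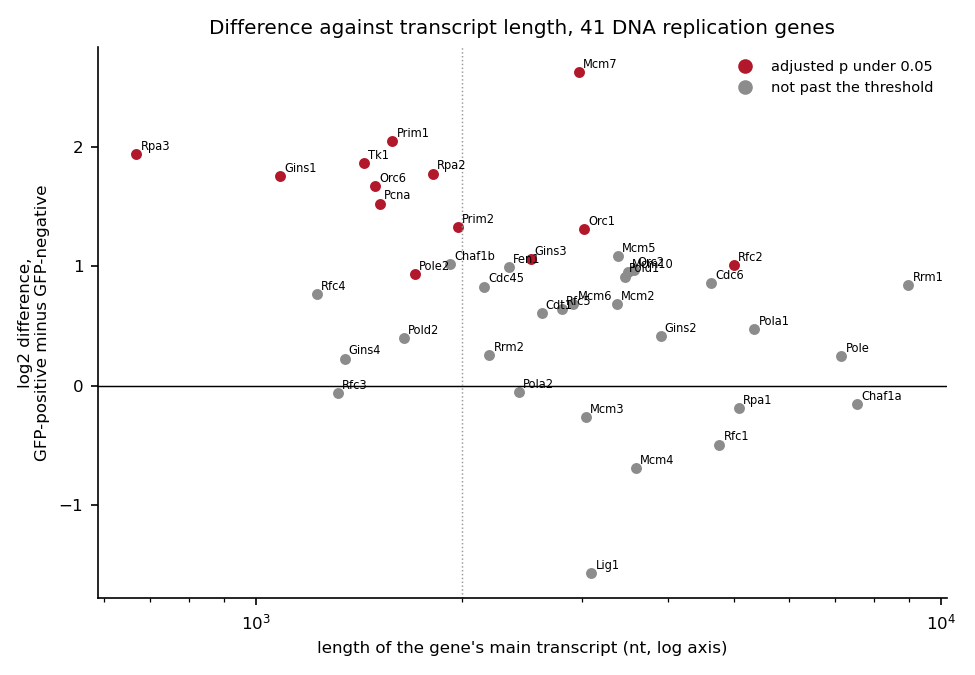
Log2 difference, GFP-positive minus GFP-negative, against the length of the main transcript (nt, log axis) for the 41 genes, with genes past the threshold in red and a dotted line at 2000 nt. The 9 called genes left of the line run from Rpa3 at 670 nt to Prim2 at 1975 nt.

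Other genes of replication, cell cycle entry and mitosis were set beside the members. Of 44 further replication genes, 42 were tested, 15 were higher (35.7%, against 14.4% of all features) and 0 lower, at a median log2 difference of 0.73. Ube2t, a ubiquitin-conjugating enzyme gene of crosslink repair, averaged 7.83 ± 0.709 FPKM in GFP-positive and 1.13 ± 0.585 FPKM in GFP-negative libraries (log2 difference 2.42, adjusted p = 0.00674), and Gmnn, the Cdt1 inhibitor gene geminin, 17.1 ± 3.70 and 5.23 ± 1.14 FPKM (1.62, adjusted p = 0.00894). Rnaseh2c (1.83, adjusted p = 0.0102) and Rnaseh2a (1.33, adjusted p = 0.0109), which encode subunits of the enzyme that removes ribonucleotides, also rose. Among 18 mitosis genes there were 8 calls higher (44.4%) and 0 lower, with a median of 1.32, led by Ccnb1 (2.55, adjusted p = 0.00684), Ccna2 (2.25, adjusted p = 0.00948), Bub1 (1.84, adjusted p = 0.0125) and Nusap1 (1.68, adjusted p = 0.0175). The rise was not uniform. The log2 difference was above 0 in 17 of the 18, but Mki67 differed little (0.19, adjusted p = 0.768) and Plk1 was negative (-0.73, adjusted p = 0.426). With equal FPKM sums, where 3.63% of all features were called higher and 41.8% lower, 1 of the further replication genes rose and 6 fell, and 3 mitosis genes rose and 0 fell.

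Of 28 regulators of entry into S phase, 5 were called higher (17.9%) and 4 lower (14.3%), shares near those of all features (14.4% and 11.5%), and the median log2 difference was 0.12. Cyclin D2, encoded by Ccnd2, fell to 27.4, 27.3 and 24.3 FPKM in GFP-positive 2, 4 and 7, against 108.3, 147.3 and 148.1 FPKM in GFP-negative 9, 11 and M (log2 difference -2.32, SE 0.25, adjusted p = 0.00377). Cdk6, which encodes 1 of the kinase partners of cyclin D2, fell as well (-1.48, adjusted p = 0.0103). So did the CDK inhibitor gene Cdkn1a (-1.22, adjusted p = 0.0177), at 43.5 ± 9.94 FPKM in GFP-positive and 100.7 ± 12.9 FPKM in GFP-negative libraries. Cdk4, the gene of another partner, rose, at 154.3 ± 20.7 FPKM in GFP-positive and 66.8 ± 13.4 FPKM in GFP-negative libraries (1.21, adjusted p = 0.0182). Ccne2, which encodes cyclin E2 of the G1/S transition, rose to 5.53, 3.63 and 7.86 FPKM in the GFP-positive libraries, against 1.02, 1.31 and 1.67 FPKM in the GFP-negative ones (log2 difference 1.71, SE 0.33, adjusted p = 0.0118). The groups did not overlap in Ccnd2, Cdk6, Cdkn1a or Ccne2, which were named for their small adjusted p. Of the 28 regulators, every GFP-positive library lay above in 7 and below in 6, where 23.5% and 22.2% of all features did. With equal FPKM sums, where 41.8% of all features were called lower, 13 of these genes fell and 0 rose.

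Germ cell markers were higher in the same libraries. The filter favours markers high in 1 group. Of 22 listed, 15 were tested, 11 rose and none fell, where 14.4% of all features were called higher and 11.5% lower. Their summed level without Uchl1 (left out after its values were seen) was 187.1, 47.3 and 71.8 FPKM in GFP-positive 2, 4 and 7, against 2.43, 3.00 and 5.43 FPKM in GFP-negative 9, 11 and M. With Uchl1 it was 205.6, 144.4 and 143.6 FPKM in GFP-positive and 93.99, 99.2 and 103.7 FPKM in GFP-negative libraries. The sperm protamine genes Prm1 and Prm2 were listed at 0 in all libraries. GFP-positive 2, the library with the highest sum, was the highest of the GFP-positive libraries in 14 replication genes and GFP-positive 7 in 20, and without GFP-positive 2 the median log2 difference of the members was 0.87. GFP-positive 4 and 7, which stay in that fit, also had higher germ cell marker sums than every GFP-negative library. That fit therefore does not bear on the part of germ cells. Fibroblast markers summed to 105.9, 88.9 and 147.4 FPKM in GFP-positive 2, 4 and 7 and to 80.9, 1284 and 397.6 FPKM in GFP-negative 9, 11 and M, with 1 of 6 tested falling. Of the markers tested for other cells, 2 of 6 for peritubular myoid cells, 1 of 4 for Leydig cells, 1 of 2 for macrophages and 0 of 1 for endothelium fell, and none rose. These counts are small, and 11.5% of all features were called lower. The part of these markers in the differences of the replication genes was not tested.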

How the data were processed

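RNA was sequenced from 6 mouse Sertoli libraries, 3 per group. Per the labels' protocols, RNA was TRIzol-extracted and DNase-treated, ribosomal RNA was depleted and dUTP libraries keep the strand. Trimmomatic, HISAT2, StringTie and mm39 are named in the submitters' processing notes. The deposited tables give, per the file headers, FPKM and mean per-base coverage (a signal used here for depth only) for 153503 transcripts. Read counts were not used, so no counting interval is given.

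FPKM was summed over transcripts with the same gene name. Of 12776 unnamed transcripts, those at loci without a gene name were kept per locus and the 7902 at named loci were left out. Median-of-ratios scaling used 12377 features with a mean FPKM of at least 1. Features under 200 nt (1201) or with a mean under 0.5 were not tested. log2(scaled FPKM + 0.5) was tested with limma 3.58.1 (R 4.3.3, lmFit and eBayes with a mean-variance trend), which understates changes of low genes. The method was tested on simulated data with independent noise for each gene. Those data held no shift shared by the genes of a library, so that test does not bear on such shifts here. Levels are mean ± SD over 3 libraries. In all, 3910 features passed (25.9%).

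Named genes are all 41 members, and of the other lists up to 4 past the threshold by adjusted p. Cdk4, Mki67 and Plk1 were added after their values were seen. Members and lists were chosen with earlier results of these data known. The closing section gives the effect of 20 alternatives. Promoters are RefSeq's (GRCm38.p6), printed without conversion to mm39.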

Additional observations from a re-analysis of the deposited data

Results flagged for a closer look

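Unnamed isoforms lie outside the sums above. Of 13 loci of replication genes that hold any, 3 (23.1%) had every GFP-positive library above every GFP-negative one in them, a share near the 23.5% of all features. At 1 locus (7.69%, against 22.2% of all features), Lig1, every GFP-positive library was below, at 1.28 ± 0.0661 FPKM against 3.00 ± 1.82 FPKM in the GFP-negative libraries. The groups nearly met there, at 1.335 FPKM in GFP-positive 4 and 1.346 FPKM in GFP-negative 9. At the Pcna locus an unnamed isoform averaged 19.5 ± 5.42 FPKM in GFP-positive and 8.68 ± 0.615 FPKM in GFP-negative libraries (SD, n = 3 each). That locus also holds Tmem230, so the isoform was given to neither gene. At the Rfc5 locus the unnamed isoform averaged 2.16 ± 0.639 FPKM in GFP-positive and 0.788 ± 0.350 FPKM in GFP-negative libraries, and at the Rpa3 locus 2.48 ± 0.136 and 0.709 ± 0.510 FPKM. None of the 3 was tested on its own.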

How the results depend on the processing

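The number of replication genes that rose was 12 to 14 with a pseudocount of 0.1 or 1, a mean of at least 1 FPKM, FPKM as deposited, quantile normalization, no variance trend, unnamed isoforms added, sums per assembled locus, or the length trend removed, and none fell in these fits. The genes that rose were 29.3% to 34.1% of the members there. Of all features, 8.29% (length trend removed) to 17.1% (sums per locus) were called higher and 7.07% to 14.2% lower. The number was 4 with no filter (9.76%, against 2.07% of all features), where 33661 features were tested and 1082 called. It was 5 at a threshold of 0.01 (12.2%, against 2.33% of all features), where 505 features were called. Scaled to an equal sum of FPKM, 6 members were called, 2 higher and 4 lower, among 7075 features, 7.99% of them higher against 55.8% above. Estimated library weights, whose estimation did not converge, gave 31 members (27 higher, 4 lower) and 11097 features. Of the members 65.9% were called higher and 9.76% lower there, against 38.0% and 35.6% of all features. With the length trend removed 2319 features were called. Without GFP-negative 11 and M together, where the lone GFP-negative library is assumed to vary like the others, limma called 0 features and 0 members, with 3345 features and 28 members at an unadjusted p under 0.05. Leaving out each library in turn gave 3 to 15 called members, 3 to 15 higher and 0 to 2 lower, among 448 to 5628 features. Pole2, whose locus holds other genes, changed sign when summed per locus (-0.045).

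No paired analysis was possible because the groups share no replicate number.

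The other sign changes were in genes that did not pass. With an equal sum of FPKM they were Mcm2 (-0.33), Mcm6 (-0.35), Cdc45 (-0.083), Cdt1 (-0.35), Gins2 (-0.44), Gins4 (-0.77), Rfc4 (-0.20), Rfc5 (-0.33), Pola1 (-0.46), Pold1 (-0.091), Pold2 (-0.58), Pole (-0.71), Fen1 (-0.010), Rrm1 (-0.19), Rrm2 (-0.72) and Orc2 (-0.021). With library weights they were Gins4 (-0.15), Rrm2 (-0.0281) and Rfc3 (0.11), with the length trend removed Chaf1a (0.44), Gins4 (-0.15) and Rpa1 (0.20), and with quantile normalization Pola2 (0.057) and Rfc3 (0.060). With each library left out in turn, Mcm3 ranged over -0.75 to 0.13, Rfc3 over -0.42 to 0.22, Pola2 over -0.35 to 0.14, Pole over -0.13 to 0.45, Rrm2 over -0.34 to 0.54 and Chaf1a over -0.74 to 0.28. Without GFP-negative 11 and M they were Rpa1 (0.22), Pola2 (0.46), Rfc3 (0.57), Mcm3 (0.61), Lig1 (0.42) and Chaf1a (0.95). The cause was not tested.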
